A study of Mus musculus with 5 samples.

Results

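HB1 and HNG2 are 2 mouse cell lines of hepatic progenitors, and their transcript levels were compared on 1 one-colour microarray each, out of 5 arrays in the series. HB1 was derived from the livers of embryos at stage E13.5 of the strain C57BL6J (also labelled C57BL/6). HNG2 was derived at the same stage from STOCK Tg(Nanog-GFP, Puro)1 Yam, mice that carry a Nanog reporter with a puromycin resistance gene. Both lines carry the label hepatic progenitor cells, neither carries a labelled treatment, and each stands for 1 culture of 1 line. The other 3 arrays are iHep-9F and iHep-10F, cells induced from the neural progenitor line NSBAg2 with retroviral vectors of 9 or 10 transcription factors, and NSBAg2 itself. NSBAg2 came from an embryonic stem cell line with a beta-geo cassette in Afp, and the induced cells were selected through that cassette with G418. Those arrays serve here only to show where other values lie, and Afp transcription was itself selected in the induced cells.

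Fetal liver hepatic progenitors, or hepatoblasts, give rise to both hepatocytes and the bile duct cells called cholangiocytes. They already secrete the fetal serum protein alpha-fetoprotein, and as they mature they turn on albumin, lipoprotein, detoxification and bile transport genes. The same cells carry epithelial keratins, and in the embryo they sit among stellate, endothelial and blood-forming cells, whose genes are the usual signs of other lineages in a liver culture.

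Members of the comparison were the non-control probes that were well above background, by the scanner software's own test, on at least 1 of the 2 arrays. This held for 28553 probes, out of 41149 with a value on all 5 arrays. Of these, 24960 were well above background on both arrays, 1635 on HNG2 alone and 1958 on HB1 alone, and the remaining 12596 probes were dim on both. They named 19107 genes, each read through its brightest passing probe. A level is the log2 signal relative to the 75th percentile of its array, so that 0 is that percentile, and levels of different probes are not compared with each other. Where a probe was not well above background on one array, its fold is a lower bound, written "at least": the bright level against the higher of the dim probe's own level and the lowest level well above background on that array (-5.99 on HB1, -6.62 on HNG2). With 1 array per line there is no replicate spread, so no test was made and no p-value is given. The size of a difference is instead set against the share of all genes that lie as far apart and against the other probes of the same gene.

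The label of both lines was checked against marker genes. All 10 hepatocyte and hepatoblast markers were well above background on both arrays, with a summed signal of 311 times the array's 75th percentile in HB1, 78.5 times in HNG2 and 8.33 times in the neural line NSBAg2, where 5 of the 10 were above background. The wider list of hepatoblast genes had 3 of 21 members at least 4-fold higher in HB1 (Afp, H19 and Anpep) and 2 in HNG2 (Dlk1 and Lgr5), against 4.8% and 3.19% of all genes. Its median difference was 0.01, but -0.24 with arrays scaled to their median, -0.11 after quantile normalization and -0.04 after a lowess correction described later. The cholangiocyte markers were above background for 7 of 8 genes on both arrays (all but Sctr), with sums of 330 in HB1 and 427 in HNG2. The sum of 360 in NSBAg2, where Krt7 and Krt19 were not above background, lay between them, so this sum does not set the 2 lines apart from a neural line. The defining blood cell markers Ptprc, Adgre1, Itgam, Spi1 and Gata1, and the endothelial markers Pecam1 and Cdh5, were not well above background in either line. Of the whole lists, 5 of 10 erythroid genes were above background in both lines. So were 6 of 12 endothelial genes in HB1 (Kdr, Tek and Vwf among them) and 3 in HNG2. Of 11 macrophage and leukocyte genes, 4 were above background in HB1 and 5 in HNG2, with Csf1r above it in both. The part of such cells in the results was not tested. Of 6 pluripotency markers, 4 were above background in HB1 and 3 in HNG2, with summed signals of 0.553 and 0.839. In NSBAg2 4 were above background, with a sum of 0.991. Nanog was not above background in HB1 (-8.13) or in HNG2 (-8.67), the line from the reporter stock.

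Between 58.9% and 65.6% of spots were well above background on the 5 arrays and none was saturated. HB1 and HNG2 were scanned on different days and lie on different slides, so line, strain, slide and scan day cannot be told apart. Over probes measured on both arrays, the median absolute difference between HB1 and HNG2 was 0.466 log2 units and 5.05% of 24960 probes lay past 4-fold. Between iHep-9F and iHep-10F, which share a scan day, those values were 0.132 and 0.227% of 23802 probes. Repeated spots of 1 probe on 1 array had a median SD of 0.0490 in HB1 (169 probes) and 0.0733 in HNG2 (172 probes), which covers spotting and scanning error only. The difference also depended on brightness. Over the dimmest eighth of the genes measured on both arrays the median difference, HB1 minus HNG2, was 0.71, and over the brightest eighth it was -0.05. The plot of the median difference by brightness shows this trend and its removal with a lowess curve (a local regression of the difference on the mean level).

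**Figure D1:**
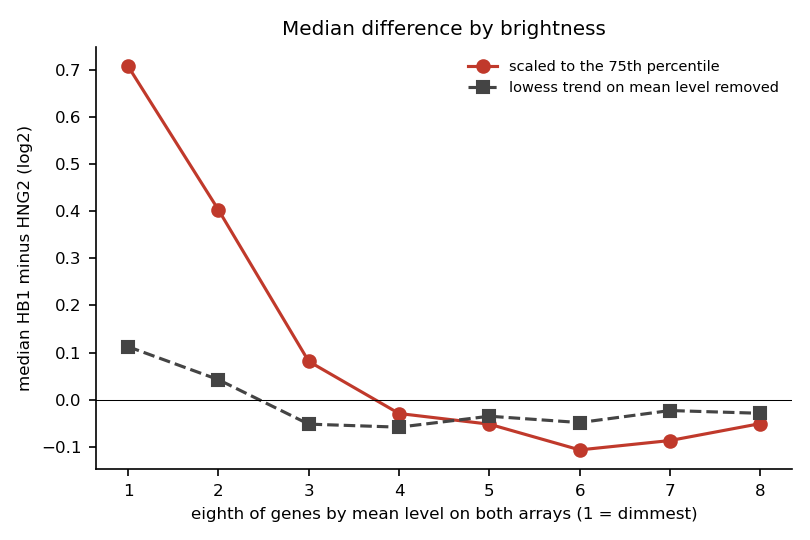
Median of HB1 minus HNG2 (log2, vertical axis) over each eighth of the genes measured on both arrays, ordered by their mean level (horizontal axis, 1 is the dimmest), with 1 array per line and thus no error bars. The red line falls from 0.71 in the dimmest eighth to between -0.11 and -0.03 in the 5 brightest, and after the lowess correction (dashed) all 8 medians lie between -0.06 and 0.11.

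In all, 917 of 19107 genes (4.8%) were at least 4-fold higher in HB1 and 609 (3.19%) were at least 4-fold higher in HNG2, together 7.99%. At 2-fold the shares were 19% and 8.54%. Over the 16520 genes measured on both arrays they were 3.4% and 2.42% at 4-fold. HB1 thus held 60.1% of the 4-fold calls, but this split depends on how the arrays are scaled. HB1 held 43.1% of them after the lowess correction, 47.1% when each array was scaled to its median, 46.4% after quantile normalization and 48.8% with another background correction (normexp). Scaling to the median also moved the median difference of all genes from 0.07 to -0.15. The 4.8% and 3.19% are the background for each gene group that follows. The gene groups were chosen with results of these data already known. In each, fewer cells of a kind and less RNA per cell cannot be told apart.

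**Figure D2:**
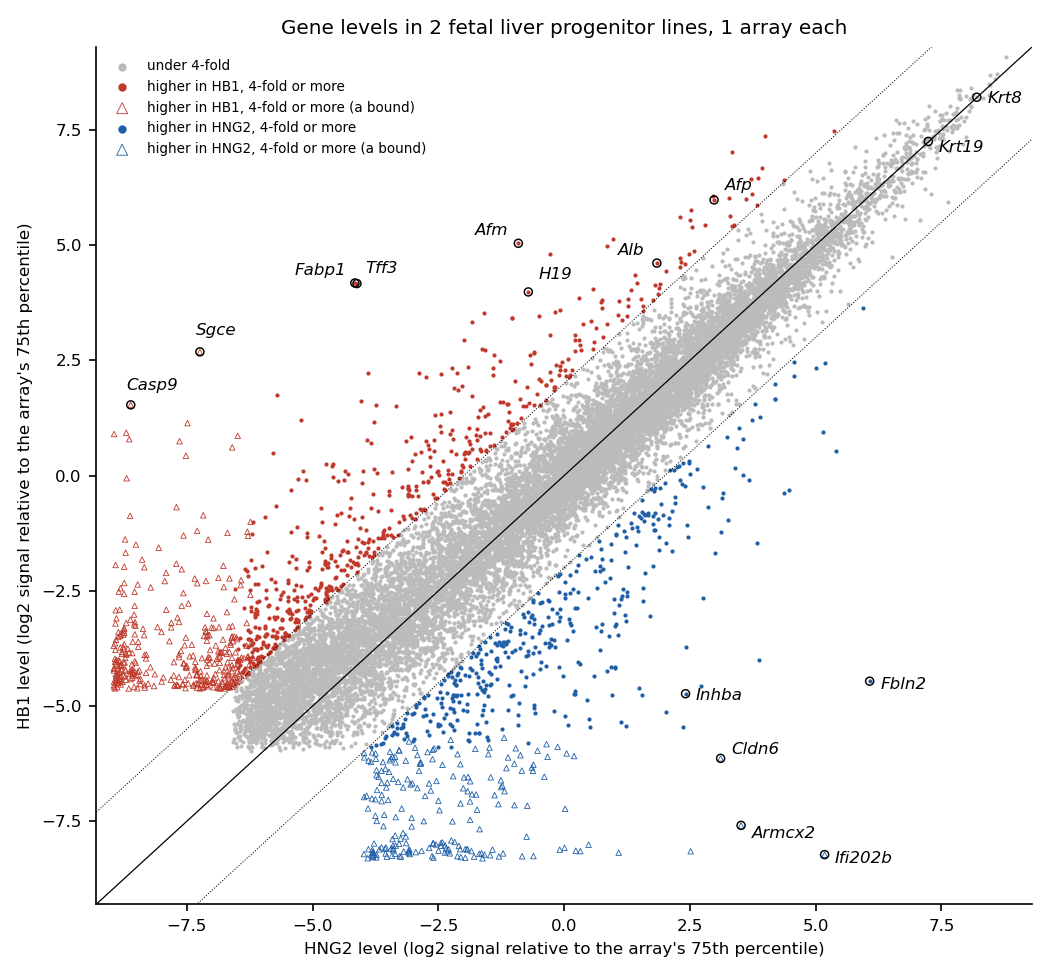
Level of each of 19107 genes in HNG2 (horizontal axis) and HB1 (vertical axis), in log2 signal relative to the 75th percentile of the array, 1 point per gene and 1 array per line. The solid line marks equal levels and the dotted lines 4-fold; red genes are higher in HB1 and blue genes in HNG2, and open triangles are genes not well above background on one array, whose fold is a lower bound. Krt8 and Krt19 lie on the line of equal levels, while Fabp1 and Tff3 (above) and Fbln2 (below) lie far from it.

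The albumin family and other liver transport proteins of the plasma were higher in HB1. Of 21 members measured, 7 (33.3%) were at least 4-fold higher in HB1 and none in HNG2, with a median difference of 1.84 against 0.07 over all genes. Afp, the fetal serum protein, had a level of 5.98 in HB1 and 2.98 in HNG2, 8.01-fold higher in HB1. Its level in iHep-9F and iHep-10F, 6.40 and 6.82, was nearer to that of HB1. Alb, the main carrier protein of adult plasma, stood at 4.61 in HB1 and 1.84 in HNG2, a 6.81-fold difference. Afm, which encodes the vitamin E-binding protein afamin, differed most, with 5.04 against -0.91 on its brighter probe (61.9-fold) and -1.32 against -5.96 on its dimmer one (24.9-fold). These 3 genes neighbour each other on chromosome 5, and all 3 were higher in HB1. Ttr, the carrier of thyroid hormone and retinol, was 15.8-fold higher (1.95 against -2.04), and Ambp, the precursor of alpha-1-microglobulin and bikunin, 10.4-fold (7.37 against 3.99). Haptoglobin (Hp) and the thyroxine carrier Serpina7 completed the 7, with 5.77-fold and 4.93-fold. Not all plasma proteins followed: the fetuin gene Ahsg had -0.18 in HB1 and -0.28 in HNG2, and Fetub -3.58 and -3.56, while both fetuins were brighter in the induced cells (Ahsg 6.25 in iHep-9F and 6.34 in iHep-10F, Fetub 2.85 and 3.20).

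The promoters of the albumin cluster are shown because its 3 genes lie together and differ in the same direction, with that of Fabp1 and that of Fbln2, which differed most in the opposite direction among genes measured on both arrays. Each sequence runs 5′ to 3′ over 300 bases, from 250 before the start of the transcript to 50 from it on, as RefSeq gives it on build GRCm38.p6, plus strand. The positions are chr5:90460620-90460919 for Alb, chr5:90490464-90490763 for Afp, chr5:90518699-90518998 for Afm, chr6:71199629-71199928 for Fabp1 and chr6:91212514-91212813 for Fbln2. Capitals mark the 50 bases from the start of the transcript on.
Alb: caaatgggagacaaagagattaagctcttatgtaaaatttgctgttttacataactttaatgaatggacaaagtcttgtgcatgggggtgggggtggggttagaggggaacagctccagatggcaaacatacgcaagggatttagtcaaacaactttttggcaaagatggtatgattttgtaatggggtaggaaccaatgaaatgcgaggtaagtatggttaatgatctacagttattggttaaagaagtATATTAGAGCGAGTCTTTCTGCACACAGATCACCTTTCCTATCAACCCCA
Afp: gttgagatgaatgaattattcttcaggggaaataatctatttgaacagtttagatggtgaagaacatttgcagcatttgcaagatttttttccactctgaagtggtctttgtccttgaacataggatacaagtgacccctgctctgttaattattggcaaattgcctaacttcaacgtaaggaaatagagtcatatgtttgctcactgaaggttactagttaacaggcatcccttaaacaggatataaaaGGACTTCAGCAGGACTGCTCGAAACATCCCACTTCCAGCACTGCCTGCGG
Afm: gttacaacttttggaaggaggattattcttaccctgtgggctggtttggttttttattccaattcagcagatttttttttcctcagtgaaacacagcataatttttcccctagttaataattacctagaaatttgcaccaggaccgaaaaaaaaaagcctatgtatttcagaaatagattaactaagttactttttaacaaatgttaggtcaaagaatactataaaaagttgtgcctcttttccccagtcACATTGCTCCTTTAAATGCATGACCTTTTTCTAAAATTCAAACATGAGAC
Fabp1: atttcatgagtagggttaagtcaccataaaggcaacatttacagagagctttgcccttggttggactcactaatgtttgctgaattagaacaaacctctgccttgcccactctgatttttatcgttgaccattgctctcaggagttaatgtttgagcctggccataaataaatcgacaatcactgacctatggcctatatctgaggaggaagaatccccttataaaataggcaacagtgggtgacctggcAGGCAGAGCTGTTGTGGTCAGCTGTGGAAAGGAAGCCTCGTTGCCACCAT
Fbln2: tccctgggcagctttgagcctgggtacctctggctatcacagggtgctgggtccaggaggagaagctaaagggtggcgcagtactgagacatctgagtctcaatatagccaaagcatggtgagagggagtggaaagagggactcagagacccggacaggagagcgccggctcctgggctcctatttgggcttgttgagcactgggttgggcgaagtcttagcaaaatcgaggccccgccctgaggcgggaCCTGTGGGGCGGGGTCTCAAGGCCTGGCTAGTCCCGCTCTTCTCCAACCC

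Apolipoproteins, the protein parts of lipoprotein particles, followed the plasma proteins. Of 19 genes of lipoproteins and their assembly, 4 (21.1%) were at least 4-fold higher in HB1 and none in HNG2, with a median of 1.45. Apoc2, the activator of lipoprotein lipase, had 6.43 in HB1 and 3.72 in HNG2, 6.55-fold apart. Apoc3, an inhibitor of that enzyme, was higher on both its probes, 6.97-fold (-1.90 against -4.70) and 9.02-fold (-1.99 against -5.17). Apoc4 was 6.63-fold higher and Apoa4, an apolipoprotein of gut and liver, at least 9.36-fold, being dim in HNG2. Apob, the scaffold of the largest particles, differed by probe: its 5 probes gave between 1.17-fold and 4.44-fold, all higher in HB1, and the brightest gave the smallest difference (4.26 against 4.04). Clotting genes were mixed. Of 26 measured, 7 (26.9%) were at least 4-fold higher in HB1 and 3 (11.5%) in HNG2. Those higher in HB1 included F10 (clotting factor X, 18.6-fold) and the fibrinogen chain Fgb (7.72-fold), while Fga and Fgg, the other chains, were 2.23-fold and 1.79-fold higher. After the lowess correction 3 genes were past 4-fold in HB1 and 3 in HNG2. The 3 higher in HNG2 were Tfpi, Serpind1 and F3. Tfpi, the inhibitor of the tissue factor pathway, was 34.01-fold higher in HNG2 (-4.15 in HB1, 0.94 in HNG2), and at least 55.1-fold on its second probe. F3, tissue factor itself, was 5.26-fold and 6.95-fold higher in HNG2 on its 2 probes, and Serpind1, the thrombin inhibitor heparin cofactor II, 8.68-fold. Of 21 complement genes measured, 4 were higher in HB1, including C4bp (13.54-fold on its brighter probe) and the lectin Mbl1 (6.91-fold), and 1 was higher in HNG2, the complement regulator Cd59a (12.7-fold on its brightest probe). The second brightest probe of Cd59a was under 4-fold, with a difference or bound of -1.77 (log2, HB1 minus HNG2).

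Genes for handling drugs and other foreign compounds leaned the same way. Of 33 cytochrome P450 genes measured, 13 (39.4%) were at least 4-fold higher in HB1 and 3 (9.09%) in HNG2, with a median of 1.34, and 12 and 3 were so after the lowess correction. Cyp2c29 had -0.12 in HB1 and -4.50 in HNG2 (20.9-fold), Cyp2d26 2.73 and -1.57 (19.7-fold), and Cyp4f14, a fatty acid hydroxylase, 0.48 and -2.97 (10.9-fold). The 3 of the opposite direction, none of them well above background in HB1, were Cyp2j6 (at least 34.7-fold), Cyp1b1 (at least 10.9-fold) and the retinoic acid-degrading enzyme Cyp26b1 (at least 8.69-fold). Among 55 conjugation and antioxidant genes 17 (30.9%) were higher in HB1 and 3 in HNG2, both counts also after the lowess correction. The glutathione transferases Gsta1 (4.80 against -0.28, 33.9-fold) and Gsta2 (3.52 against -1.60, 34.7-fold) were far apart, but their probes may not separate these near-identical copies. Gsta3 gave 19.5-fold and 21.1-fold on 2 probes. Sult1d1, a sulfotransferase, was 50.5-fold higher in HB1 (1.63 against -4.03). Adh1, the class I alcohol dehydrogenase, was at least 184-fold higher on its brightest probe (0.90 against a dim -8.95) and at least 72.6-fold on a second one, and its remaining probe was dim in both lines. Higher in HNG2 were the secreted glutathione peroxidase Gpx3 (at least 41.5-fold), the carboxylesterase Ces2e (13.8-fold) and Gstt2 (5.42-fold).

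Transporters of bile acids, drugs and ions counted 7 higher in HB1 (21.9%) and 2 higher in HNG2 among 32 measured. Abcc2, the canalicular pump for conjugated compounds, was at least 42.9-fold higher in HB1 (-1.20 against a dim -7.30). Abcg5, one part of the sterol exporter, was 28.9-fold higher, with -3.35 in HNG2, and in the induced cells it was not above background. Slco2a1, the prostaglandin carrier, gave 17.4-fold and 17.8-fold on 2 probes. Abca1, the cholesterol exporter that loads high-density lipoprotein, went the opposite way, with -5.60 in HB1 and -1.77 in HNG2 (14.2-fold). Fatty acid genes held 10 of 38 members higher in HB1 (26.3%) and none in HNG2, and 7 and 1 after the lowess correction. Fabp1, the liver fatty acid-binding protein, had 4.17 in HB1 and -4.12 in HNG2, 312-fold apart, with -1.29 in iHep-9F and 0.01 in iHep-10F between them. Cidec, a lipid droplet protein, was 39.6-fold higher in HB1 and Acox2, a peroxisomal oxidase of bile acid side chains, 23.4-fold. The enzymes of mitochondrial beta-oxidation differed less: Acadm by 0.82, Acadl by 0.69 and Cpt1a by 0.51 on the log2 scale. Cholesterol and fatty acid synthesis showed a small shift shared by many genes, with 17 of 36 members at least 2-fold higher in HB1 (19% over all genes) and 1 in HNG2 (8.54%), and 3 at least 4-fold higher (Acss2, Cyp51 and Insig1).

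Genes of intestinal epithelium also stood higher in HB1, 10 of 29 measured (34.5%) against 1 in HNG2, and 8 against 1 after the lowess correction. Tff3, a trefoil peptide of goblet cells, was 324-fold higher in HB1 (4.18 against -4.16), with 1.05 in iHep-9F and 1.51 in iHep-10F. Muc13, a transmembrane mucin, was 28.5-fold higher (0.22 against -4.62), the secreted protein gene Prap1 13.9-fold, and Cdhr2, a cadherin of the brush border, 8.69-fold on its brighter probe. The second probe of Cdhr2 was under 4-fold, with a difference or bound of 1.53 (log2). Cdx2, the factor that specifies intestine, did not follow: it stood at 4.70 in HB1 and 4.37 in HNG2. Lgr5, the R-spondin receptor known from intestinal stem cells, was the member higher in HNG2, 16.5-fold (-4.15 in HB1, -0.10 in HNG2), and its second probe was dim in both lines.

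The transcription factors of liver were mostly within 4-fold of each other in the 2 lines. Of 32 measured, 4 (12.5%) were at least 4-fold higher in HB1 and none in HNG2, with a median of 0.36. After the lowess correction 2 were past 4-fold in HNG2. The 4 were nuclear receptors and a membrane-bound factor. Nr1i3, the xenobiotic receptor CAR, had -2.02 in HB1 and -6.15 in HNG2 (17.5-fold), and Nr5a2, the bile acid regulator LRH-1, 0.15 and -3.78 (15.2-fold). Ppara, the fatty acid receptor, was 4.86-fold higher and Creb3l3 4.52-fold. Foxa2, a forkhead factor of early liver, stood at 4.92 in HB1 and 4.56 in HNG2. Hnf4a, the central hepatocyte receptor, had 2.60 and 2.03 on its brightest probe, while its other probes gave differences of -0.04 and 1.57. Foxa1 was lower in HB1, at -3.83 against -1.92. Epithelial identity genes also lay close: Krt8 had 8.21 in HB1 and 8.20 in HNG2, Krt19 7.25 and 7.24, and Epcam -0.03 and -0.69. Krt7, a keratin of bile ducts, was 1.67-fold and 2.25-fold higher in HNG2 on its 2 probes, and the duct factor Sox9 2.16-fold to 3.05-fold on 3 probes. Of 17 keratins measured, only Krt79 and Krt12 passed 4-fold, both higher in HNG2. None of 50 genes of DNA replication and mitosis passed 4-fold in either direction, and Mki67, the proliferation marker, had 5.25 and 5.14.

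**Figure D3:**
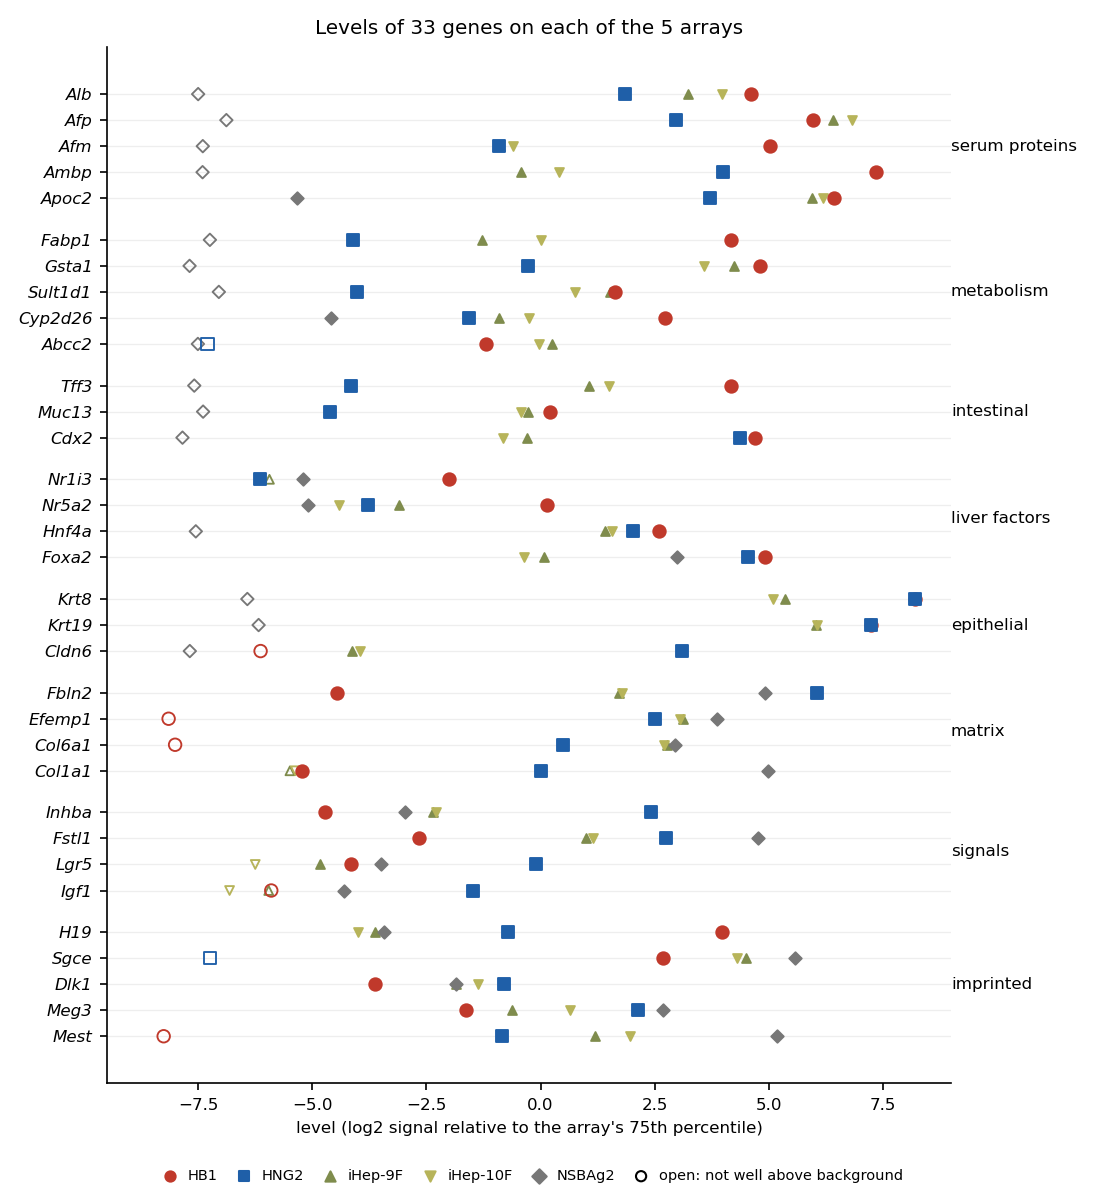
Level (log2 signal relative to the 75th percentile of the array, horizontal axis) of 33 genes on the 5 arrays, 1 point per array and no replicates. Open symbols are not well above background. Serum protein and metabolic genes lie further right in HB1 (red circles) than in HNG2 (blue squares), the 4 matrix genes lie further right in HNG2, and Krt8, Krt19, Foxa2 and Cdx2 lie close together in the 2 lines.

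Mesenchymal and extracellular matrix genes had the lowest median difference of the 37 lists. Of 48 measured, 20 (41.7%) were at least 4-fold higher in HNG2 and 1 (2.08%) in HB1, with a median of -0.96, and the counts were the same after the lowess correction. In 18 of the 48 the probe was not well above background in HB1. Fbln2, the matrix glycoprotein fibulin 2, had -4.46 in HB1 and 6.07 in HNG2, 1484-fold apart on its single probe. In NSBAg2 it stood at 4.92 and in the induced cells at 1.73 and 1.80, so that HB1 was the one array of 5 with a level below 0. Efemp1, a related fibulin, was at least 363-fold higher in HNG2 (2.51 against a dim -8.15), the collagen chain Col6a1 at least 88.8-fold and the collagen cross-linking enzyme Loxl1 at least 79.2-fold. Col1a1, the main chain of fibrillar collagen, stood at -5.22 in HB1 and 0.02 in HNG2, 37.8-fold apart, but at 4.98 in NSBAg2. The second brightest probe of Col1a1 gave a smaller difference or bound, -2.45 (log2, HB1 minus HNG2). The platelet-derived growth factor receptor Pdgfrb was at least 38.2-fold higher in HNG2. Fibronectin (Fn1), which links cells to the matrix, was higher in HNG2 on 3 probes, by 4.71-fold, 4.87-fold and 3.63-fold. Not every mesenchymal gene was lower in HB1: vimentin (Vim) had 6.73 in HB1 and 6.48 in HNG2, and the homeobox factor Prrx2 was 8.47-fold higher in HB1. The related Prrx1 was 7.02-fold higher in HNG2 on its brightest probe, while its other 3 passing probes ran from at least 15.1-fold higher in HNG2 to 2.01-fold higher in HB1.

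Markers of stellate cells and fibroblasts, which overlap with the matrix list, were also unequal. Well above background were 6 of their 14 genes in HB1 and 10 in HNG2, with summed signals of 14.3 and 19.04 times the 75th percentile, and of 201 in NSBAg2. In HB1 Pdgfrb, Col3a1, Dcn, Lum, Des, Reln, Lhx2 and Rgs5 were not above background, and in HNG2 Des, Lum, Rgs5 and Lrat were not. The mesothelial markers summed to 106 in both lines, although Wt1 was at least 6.90-fold higher in HNG2. The part of other cells in the matrix values was not tested.

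Matrix-degrading enzymes and their inhibitors counted 9 of 38 higher in HNG2 (23.7%) and 1 in HB1, but their median difference was -0.06. Of the 38, 6 were dim in HB1 and 2 in HNG2. Over those measured on both arrays, 12 were at least 2-fold higher in HNG2 and 2 in HB1. Mmp2, a gelatinase, was at least 27.9-fold higher in HNG2 (-1.19 against a dim -6.85), Adamts1 9.46-fold and at least 9.41-fold on 2 probes, and Adam23, a member without protease activity, 10.6-fold. Adam19 was the one in the opposite direction, at least 4.83-fold higher in HB1, but 2 of its 3 probes were dim in both lines and the remaining one was under 4-fold after the lowess correction (log2 difference 1.62). Among 33 basement membrane and integrin genes 3 were higher in HNG2 and 2 in HB1. Itga5, the alpha chain of the fibronectin receptor, was 8.55-fold higher in HNG2, and Itgb6, an epithelial beta chain, was higher in HB1 on 2 probes, by at least 33.3-fold and 32.6-fold. Among epithelial junction genes the largest bound was that of Cldn6, a claudin of embryonic epithelium, at least 548-fold higher in HNG2 (-6.14, dim, against 3.11). It stood at -4.13 in iHep-9F and -3.95 in iHep-10F. Cldn7 (6.93-fold) and the desmosomal cadherin Dsc2 (10.4-fold) were also higher in HNG2, and Spint2, a protease inhibitor of epithelia, 12.3-fold higher in HB1. In all, 5 of 41 junction genes were past 4-fold in HNG2 and 2 in HB1.

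Most signalling lists held more members past 4-fold in HNG2 than in HB1. In the activin, BMP and TGF-beta pathway 9 of 49 genes (18.4%) were at least 4-fold higher in HNG2 and 1 in HB1. Of the 49, 7 were dim in HB1 and 2 in HNG2, and a gene dim in one line can only count for the other. Over those measured on both arrays, 8 were at least 2-fold higher in HNG2 and 4 in HB1. Inhba, the subunit of activin A, had -4.74 in HB1 and 2.41 in HNG2, 142-fold apart, and was at or below -2.29 on the other arrays. Its antagonist follistatin (Fst) was higher in the same line, at least 13.1-fold, as was the follistatin-like gene Fstl1 (42.8-fold), and Ltbp2, a latency-binding protein of the family, at least 16.8-fold. Bmp7, a ligand, was higher in HB1 on both probes, 5.89-fold and 8.57-fold. In the Wnt pathway, 9 of 43 genes (20.9%) were higher in HNG2 and 1 in HB1. Here 10 of the 43 were dim in HB1, and so could only count for HNG2, and 1 was dim in HNG2. Over Wnt genes measured on both arrays the median difference was -0.12, with 9 at least 2-fold higher in HNG2 and 6 in HB1. The receptors Lgr5 (given above) and Lgr6 (at least 7.16-fold and 6.66-fold on 2 probes), the ligand Wnt7a (8.80-fold) and the secreted inhibitor Sfrp1 (at least 4.81-fold) were higher in HNG2. Wnt4, a ligand, was 25.2-fold higher in HB1 (2.20 against -2.45). Axin2, the usual readout of canonical Wnt signalling, was not above background in either line.

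Among 52 genes of the FGF, EGF, HGF, IGF, PDGF and VEGF pathways, 6 (11.5%) were higher in HNG2 and 1 in HB1. Igf1, the insulin-like growth factor, was higher in HNG2 on 2 of its probes, by at least 21.3-fold and 24.3-fold (-1.49 and -1.38 in HNG2, dim in HB1), and by at least 1.14-fold on the other one. Igfbp3, a binding protein, was 5.77-fold higher in HNG2, and Igfbp5, another one, 37.0-fold higher in HB1 (-0.07 against -5.28). The lymphatic growth factor Vegfc (5.97-fold) and Etv4, a target of FGF signalling (6.24-fold), were higher in HNG2. Of 23 Notch pathway genes, Hes5 was past 4-fold in HB1 and Dlk1 and Dtx4 in HNG2. Chemokines, cytokines and inflammatory genes counted 10 of 37 higher in HNG2 (27.0%) and 2 in HB1. Of the 37, 7 were dim in HB1 and 2 in HNG2. Over those measured on both arrays, 10 were at least 2-fold higher in HNG2 and 3 in HB1. Vcam1, an adhesion molecule, was 25.6-fold higher (-1.68 in HB1, 2.99 in HNG2) and at least 14.0-fold on a second probe. Cxcl12, which holds blood progenitors in their niche, was at least 21.1-fold higher and its scavenger receptor Ackr3 at least 19.1-fold. The second brightest probe of Cxcl12 was under 4-fold, with a difference or bound of -1.62 (log2, HB1 minus HNG2). Il34, a ligand of the macrophage receptor CSF1R, had -4.05 in HB1 and 0.28 in HNG2. Ccl20 (6.20-fold) and Cxcl17 (5.27-fold) were the 2 higher in HB1. The macrophage and leukocyte markers summed to 2.71 in HB1 and 6.90 in HNG2, with 4 and 5 of 11 above background. Only Csf1r among them passed 4-fold, higher in HB1 by 2.23 (log2) on its brightest probe. Its second brightest probe gave a difference or bound of 1.87. Interferon-stimulated genes held members on both sides, 8 of 40 higher in HNG2 and 3 in HB1, with a median of -0.00 that changes sign with the scaling. Ifi27 (at least 164-fold) and Usp18 (9.01-fold) were higher in HB1, and Ly6e (7.19-fold) and Ifitm2 (5.64-fold and 4.82-fold on 2 probes) in HNG2.

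**Figure D4:**
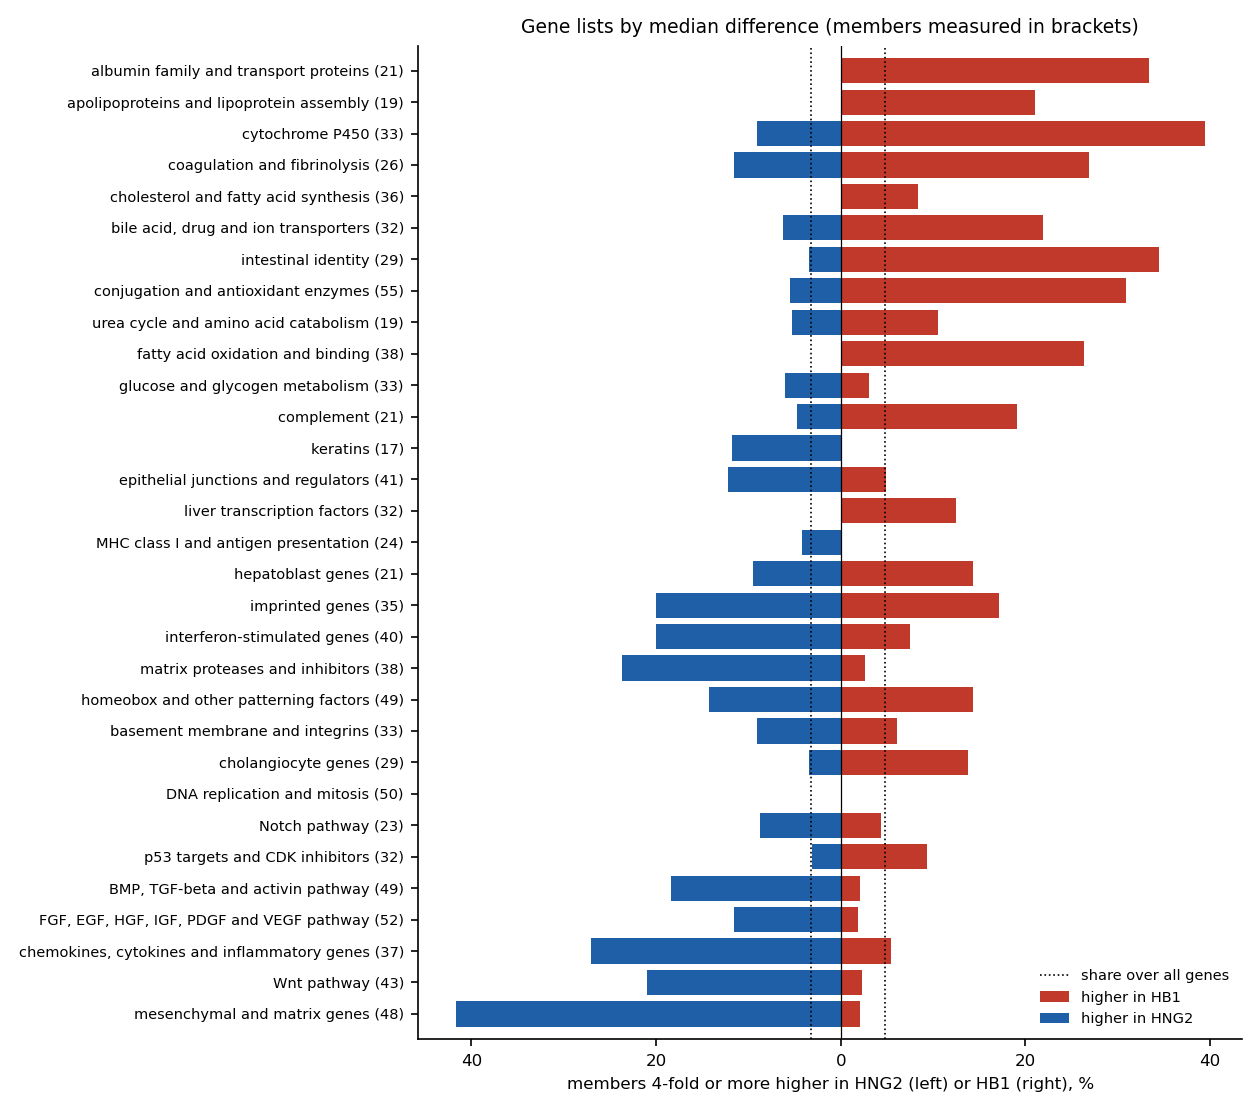
Share of the measured members of each gene list with at least 15 measured members that were at least 4-fold higher in HB1 (red, to the right) or HNG2 (blue, to the left), in percent, 1 array per line. Lists are sorted by their median difference, with the number of measured members in brackets, and dotted lines mark the shares over all genes (4.8% and 3.19%). Cytochrome P450, intestinal and albumin family genes reach 39.4%, 34.5% and 33.3% on the side of HB1, and mesenchymal and matrix genes 41.7% on that of HNG2.

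Imprinted genes, which are read from one parental copy only, differed in both directions: 6 of 35 measured (17.1%) were at least 4-fold higher in HB1 and 7 (20%) in HNG2. Their median of 0.00 changed sign when arrays were scaled to their median. H19, a maternally read RNA of fetal tissues, had 3.98 in HB1 and -0.71 in HNG2 (26.0-fold) and 22.5-fold on a second probe, while the other 3 arrays were at -3.43 or below. Its neighbour Igf2, the paternally read growth factor, was 2.75-fold and 2.86-fold higher in HB1, and in iHep-9F and iHep-10F it was brighter than in both (3.38 and 1.90). On chromosome 12, the neighbours Dlk1, Meg3, Rian and Mirg were all higher in HNG2. Dlk1, a surface protein used to sort hepatoblasts, was 7.10-fold and 3.98-fold higher on 2 probes, with -3.64 in HB1 and -0.81 in HNG2 on the brighter one. All 5 passing probes of the noncoding Meg3 were higher in HNG2, between 2.50-fold and 14.3-fold. Rian was at least 23.1-fold and Mirg at least 7.32-fold higher. Sgce, the gene for epsilon-sarcoglycan, had 2.68 in HB1 and was dim in HNG2 (-7.24), with bounds of 633-fold and 74.2-fold on 2 probes, and it was bright on the other 3 arrays (4.51, 4.31 and 5.57). Its neighbour Peg10 was dim in both lines. Magel2 was at least 148-fold higher in HB1 (0.61 against a dim -6.60), while Ndn, from the same imprinted domain, was 7.93-fold higher in HNG2. Mest was at least 35.5-fold higher in HNG2 (-0.84 against a dim -8.26).

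Several genes were bright in one line and not above background in the other. Ifi202b, an interferon-inducible gene, had 5.18 in HNG2 and a dim -8.23 in HB1, a bound of at least 2295-fold, and stood at 3.09, 2.87 and 2.09 on the other arrays. Armcx2 was at least 726-fold higher in HNG2 and Bhlhb9 at least 134-fold. Both are armadillo-family genes of the X chromosome, and HB1 was the only one of the 5 arrays where they were not above background. Casp9, the initiator caspase of the mitochondrial death pathway, was at least 285-fold higher in HB1, with 1.53 there, a dim -8.62 in HNG2 and 1.77 to 2.50 on the other arrays. The cell cycle inhibitors of the Ink4 locus showed the same pattern. Cdkn2b had 0.79 in HB1, a dim -8.65 in HNG2 and 3.91 to 5.22 elsewhere (at least 170-fold), and Cdkn2a -2.33, a dim -8.75 and 0.74 to 2.88 (at least 19.5-fold). Their neighbour Mtap was measured in both lines, at -1.34 in HB1 and 0.65 in HNG2. On the Y chromosome, Ddx3y had 0.93 in HB1 and a dim -8.71 in HNG2 (at least 188-fold, and at least 30.7-fold on a second probe). The Y genes Eif2s3y (1.92 and 1.60) and Kdm5d (-1.08 and -0.81) were present in both lines. The X-inactivation RNA Xist was dim in both on 3 of 4 probes. Of 10 genes known to vary among laboratory strains, 4 were at least 4-fold higher in HNG2 (Oas1b, Ly6a, Ly6c1 and Wdfy1) and none in HB1. Nnt, which lacks some of its exons in C57BL/6J, was 1.46-fold to 1.66-fold higher in HNG2 on 3 probes and 2.41-fold higher in HB1 on the remaining one. Whether any of these probes lies in the deleted exons was not determined, so Nnt does not check the strain labels.

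Neighbouring genes were examined next, by the chromosome positions printed in the array files (build mm7). There were 12 runs of 3 or more adjacent named genes all past 4-fold in the same direction, 8 higher in HB1 and 4 in HNG2. Over genes measured on both arrays there were 7 runs (5 and 2), and after the lowess correction 14 (8 and 6). Runs in HB1 included 5 Cyp2d genes on chromosome 15 (from 2.67 to 4.30 on the log2 scale), Serpina10 with 3 genes of the alpha-1-antitrypsin family on chromosome 12, 4 Naip genes on chromosome 13, and the albumin cluster. Several runs in HB1 hold related genes of one family, such as the Naip and Cyp2d genes. Probes of similar copies may read one another's transcripts, so such a run can hold fewer separate differences than genes. This was not tested. The run of Bace2, Mx2 and Tmprss2 on chromosome 16 held unlike genes. With normexp its 3 genes were not all past 4-fold, since Mx2 was at 0.77 (log2). Runs in HNG2 were Lad1, Tnnt2 and Pkp1 on chromosome 1, Col5a1, Olfm1 and 1700007K13Rik on chromosome 2, the imprinted genes of chromosome 12, and Bhlhb9 with Arxes2 and Arxes1, which are near-identical copies, on the X chromosome. Each gene of a run was read through its brightest probe only. Second brightest probes under 4-fold (log2 difference or bound) included those of Col5a1 (-0.01), Cyp2d22 (0.0), Cyp2d10 (1.23), Bace2 (1.11) and Dlk1 (-1.99). Those of Cyp2d9 (3.62) and Afm (4.64) were past 4-fold. Over whole chromosomes the median difference ran from -0.07 on chromosome 9 to 0.23 on chromosome 19, and after the lowess correction it ran from -0.18 to 0.16.

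As there is no second array of either line, the probes of one gene were compared with each other. They share the RNA and the array, so their agreement says nothing of how a second culture would behave. Of 6337 genes with 2 or more passing probes, all probes had the same sign in 61.7%. Where the brightest probe was past 4-fold this held for 292 of 341 genes (85.6%), with all probes past 2-fold on the same side in 232 (68.0%) and past 4-fold in 125 (36.7%). A bound of 0 was counted as not sharing the sign. With probes measured on both arrays, the shares with the same sign were 62.6% of 5718 genes and 86.2% of 174. Across genes, the differences of the brightest and second brightest probe had a Pearson correlation of 0.616, a description over genes that are not independent of each other.

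Genes with 2 or more probes that were all well above background in both lines and all past 4-fold on the same side numbered 38 for HB1 and 29 for HNG2. Among the farthest for HB1 were the surface glycoprotein Cd99 (69.8-fold and 9.04-fold), the membrane glutathione transferase Mgst1 (13.4-fold and 12.98-fold) and Ms4a4b, a membrane-spanning protein known from T cells, whose 4 probes gave between 11.8-fold and 13.7-fold. For HNG2 they included the retinol dehydrogenase Rdh10 (14.8-fold and 15.9-fold), Cpne8 (14.1-fold and 14.9-fold), the LIM protein genes Crip1 (11.7-fold and 20.3-fold) and Trip6 (12.3-fold and 11.7-fold), and the potassium channel subunit Kcne3 (14.9-fold and 10.99-fold).

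Some genes gave opposite answers by probe. In 4 genes, 1 probe was past 4-fold in HB1 and another past 4-fold in HNG2. The brighter probe of Pdxdc1 was 4.93-fold higher in HB1 (1.76 against -0.54), while the second was dim in HB1 (-8.09) and at 2.21 in HNG2, at least 294-fold higher there, and dim on the other 3 arrays. Arsk, an arylsulfatase, was 6.92-fold higher in HNG2 on its brighter probe and 10.71-fold higher in HB1 on the other. Nrg1, a ligand of ERBB receptors with many isoforms, was higher in HNG2 on 4 probes (2.64-fold to 4.90-fold) and 5.74-fold higher in HB1 on the fifth. Zfp945 had 1 probe at least 121-fold higher in HB1 and 2 probes higher in HNG2, 2.74-fold and at least 6.58-fold. Actb, the cytoskeletal actin often used as a reference, was higher in HB1 on both probes, 5.02-fold on the brighter one (4.80 against 2.47), which the array file places on the X chromosome, and 2.60-fold on the other. Probes of Pkd2, a polycystin, gave 1.58-fold and 44.4-fold, both higher in HNG2. The files do not say which transcript each probe reads. Among 4859 genes with probes at 2 positions measured on both arrays, the 5′ probe gave a difference 0.14 higher (median, log2) than the 3′ probe, and 0.04 higher after the lowess correction. The 5′ probes were also dimmer, with a median level of -1.78 against 0.40. Between iHep-9F and iHep-10F the same median was 0.06.

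Many calls of dim genes depend on the background correction. With normexp, which adds an offset of 50 to every spot, 47 of the 182 genes past 4-fold that the naming rule chose were under 4-fold. Among those described above they were Apoa4, Apoc3, Apoc4, Mbl1, Cyp1b1, Cyp26b1, Gstt2, Creb3l3, Ppara, Insig1, Krt12, Dsc2, Adam19 and Col3a1. Sfrp1, Lgr6, Wnt7a, Hes5, Dtx4, Cxcl17, Usp18, Csf1r, Mx2, Oas1b, Ly6a, Wt1 and Cdkn2a were also among them. The marker Reln was under 4-fold as well. Genes described above that the naming rule did not choose, such as Serpina7 and Mirg, are not covered by this count. The 4-fold counts of the gene lists above are those without normexp. When the probes of a gene were averaged, Ces2e (-1.90), Wdfy1 (-0.84), Col3a1 (-1.74), Dtx4 (-1.54), Cyp51 (1.85) and Actb (1.85) were under 4-fold, and with the median of the probes Dsc2 was too (-1.64). Creb3l3, Insig1, Cyp51 and Csf1r were under 4-fold with arrays scaled to their median, and Dtx4, Hes5 and Csf1r after the lowess correction.

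**Figure D5:**
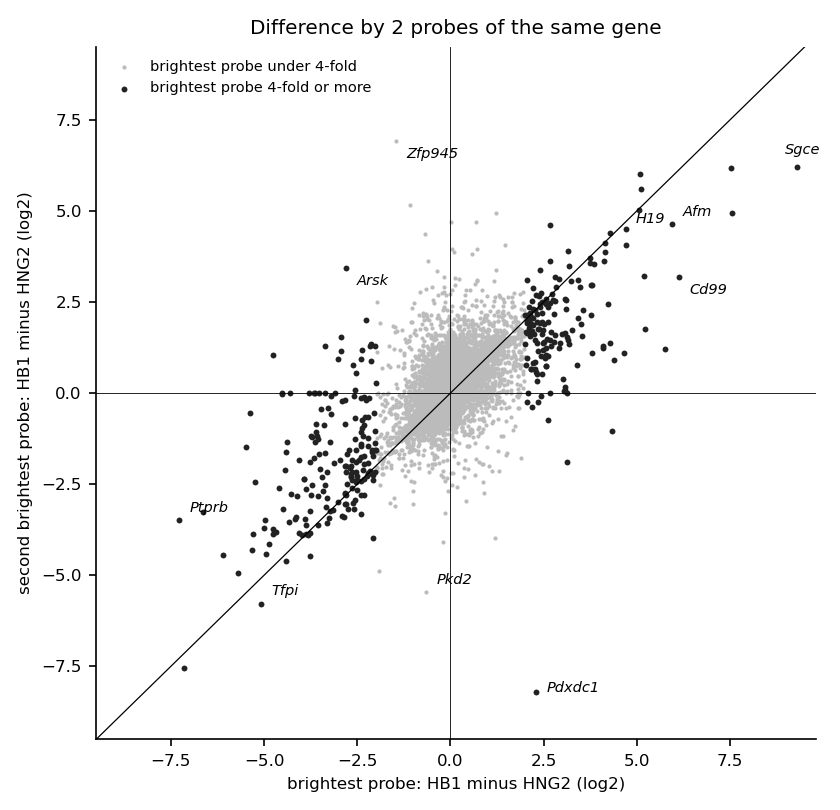
Difference HB1 minus HNG2 (log2) by the brightest probe (horizontal axis) and the second brightest probe (vertical axis) of 6337 genes with 2 or more passing probes, 1 point per gene and 1 array per line. Black points have a brightest probe past 4-fold and the diagonal marks equal differences. Points on the horizontal line at 0 have a second probe whose bound is 0. Pdxdc1 and Arsk lie in the quadrants of opposite sign.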

How the data were processed

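RNA of the 2 lines (0.25 ug each) was labelled with Cy3 and hybridised to 1 one-colour Agilent array per line. The deposited intensity of each spot is the processed signal of Agilent Feature Extraction 10.7.3.1, which per the file headers is background-subtracted and detrended within the array and not normalized between arrays. The scanner's flags for spots well above background and for outliers are in the same files. The deposited series table equals these signals.

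Outlier spots and control probes were left out, log2 signals were centred on the 75th percentile of each array, and spots of a probe were averaged. Genes were read through the passing probe with the highest mean level over both arrays. Probes were named through RefSeq by accession (22951), symbol (6659) or synonym (3109), and 8455 kept the name in the file. A gene was counted past 4-fold where its log2 difference or bound reached 2, with no test, since each line has 1 array. The computation was tested on simulated data. Python 3.11.15, pandas 2.3.3, numpy 2.4.6, statsmodels 0.14.6 (lowess, fraction 0.3), R 4.3.3 and limma 3.58.1 (normexp, offset 50) were used.

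Genes named were those with all probes past 4-fold, the largest bounds, the farthest members of each list, a fixed set of reference genes and genes with discordant probes. Other genes of a list or domain (such as Ahsg, Foxa1, Peg10) were chosen after their values were seen. Members and lists were chosen with earlier results of these data known. Alternatives covered scaling, background, filters, the bound, the probe summary and the fold.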

Additional observations from a re-analysis of the deposited data

How the results depend on the processing

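Counts are given as all genes past 4-fold, higher in HB1 and higher in HNG2, with 1526, 917 and 609 as reported. With normexp they were 607, 296 and 311, over genes well above background on both arrays 960, 561 and 399, and with each dim probe's own value in place of the bound 2394, 1477 and 917. At 2-fold they were 5257, 3625 and 1632, and at 8-fold 542, 274 and 268. After the lowess correction 597 genes were higher in HB1, 590 of them among the 917. Scaling to the median, another 75th percentile, quantile normalization, outlier spots kept, no filter, averaged probes and the demand that every probe pass kept all 3 counts within 1.5 times. Of 37 lists, 6 had a median of at least 1 in size, and 2 did with normexp or with no filter. The Ink4 median was -0.083 over genes measured on both arrays, where Cdkn2a and Cdkn2b have no value. With the probes of a gene averaged, or their median taken, Arsk was at 0.31 and Pdxdc1 at -2.95, opposite to their brightest probes. Of 182 named genes past 4-fold, 127 were so under every alternative that gave a value and 8 were under after the lowess correction. The naming rule mostly chose large differences or bounds, which favours such a result. Over all calls, normexp kept 293 of the 917 in HB1 and 311 of the 609 in HNG2. No paired analysis was possible because each line has 1 array, and for the same reason no replicate could be left out. The number of arrays limits the precision, and so does the signal of dim probes.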

Other observations

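Transcription factors that pattern the embryo differed in both directions. Of 49 homeobox and other patterning genes measured, 7 were at least 4-fold higher in HB1 and 7 in HNG2 (14.3% each, against 4.8% and 3.19% over all genes), and 3 and 7 after the lowess correction. Gata5, a zinc finger factor of endoderm and heart, was at least 41.2-fold higher in HNG2, Foxc2 at least 10.1-fold, Tbx20 at least 9.87-fold and Pdx1, the pancreatic factor, at least 8.21-fold. Irx2, an Iroquois homeobox factor, was at least 26.1-fold higher in HB1. Foxd1 (at least 6.92-fold) and Sox18 (at least 6.65-fold) were also higher there, all 3 dim in HNG2. With the normexp background correction Foxc2, Tbx20, Pdx1, Foxd1 and Sox18 were under 4-fold (log2 differences of -1.57, -1.52, -1.52, 0.66 and 0.88). None of 10 Hox genes passed 4-fold, but 6 were at least 2-fold higher in HB1 (19% over all genes) and none in HNG2. Their median difference was 1.29, and 0.79 after the lowess correction. Of the 10, 6 were dim in HNG2, and so could only count for HB1, and 1 was dim in HB1. Of the 3 measured on both arrays, 2 were at least 2-fold higher in HB1 and none in HNG2. Lin28b, which blocks maturation of the let-7 miRNAs, was 21.8-fold higher in HNG2 and the one of 13 pluripotency genes past 4-fold.

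Of 32 targets of p53 and cell cycle inhibitors, 3 were past 4-fold in HB1 (Cdkn1c, Cdkn2a and Cdkn2b) and 1 in HNG2, the ectodysplasin receptor gene Eda2r (31.4-fold). Cdkn2a was under 4-fold with normexp (1.86). Of 29 cholangiocyte genes 4 were higher in HB1, including the bile acid carrier Slc10a2 (7.53-fold) and the trefoil peptide Tff1 (9.59-fold), and 1, Pdx1, in HNG2. Of 19 genes of the urea cycle and amino acid catabolism, Otc (at least 9.00-fold) and Glul (5.35-fold) were higher in HB1 and Prodh (4.48-fold) in HNG2. Otc was under 4-fold with normexp (1.12), and Glul when its 2 probes were averaged (1.18), since they gave 2.42 and -0.07. Of 33 glucose genes, Aldoc (8.50-fold) was higher in HB1, and Ldhb (9.36-fold) and Fbp2 (4.96-fold) in HNG2. Of 24 genes of MHC class I and antigen presentation, Psmb8 (6.30-fold) was higher in HNG2. Slc10a2 (1.76) and Fbp2 (-1.83) were under 4-fold with normexp.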
